A study of Drosophila melanogaster with 2 samples.

Results

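The miRNA hairpins mir-279 and mir-996 of Drosophila melanogaster lie side by side on chromosome arm 3R, and their 3' arms give mature miRNAs with the same seed. They were taken by name from the tables of hairpin read counts, and they are 2 of the 174 hairpins listed in all. Small RNA of the central nervous system (CNS) of strain w[1118] Iso31 was sequenced at 2 stages, with 1 library for each. Each library came from about 100 pooled animals of both sexes raised at 24 °C. The larval library was made from the ventral ganglion and optic lobes, without eye discs, of wandering larvae in instar 3. The adult library was made from brains with antennal lobes, 3 to 5 days after eclosion. Stage and dissection cannot be told apart. Because each stage has a single library there was no replicate check and no test. Values in larvae and in adults are those of these libraries, and every interval covers counting error only. The kit has no molecular identifiers, so copies of a single molecule were not told apart.

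A hairpin is cut by Drosha and Dicer into a duplex, of which either arm can be loaded into an Argonaute protein. The loaded strand then finds target mRNAs mainly through its seed, bases 2 to 8 from its 5' end. In flies the locus of miR-279 and miR-996 is known for blocking the formation of carbon dioxide sensing neurons in the maxillary palp. This block acts through the transcription factor gene nerfin-1. The locus is also known for limiting JAK/STAT signalling in border cells and for a part in the rest and activity rhythm. These roles are not credited here to miR-279 alone, and what each member adds to them was not tested. Together miR-279 and miR-996 repress the Notch inhibitor insensible in mechanosensory bristles.

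The Ensembl annotation of assembly BDGP6 places mir-279 (FBgn0262448) at 3R, 29215585 to 29215684, and mir-996 (FBgn0262404) at 3R, 29217184 to 29217280, both on the plus strand and 1499 bases apart. Both lie within the long noncoding RNA gene lncRNA:CR31044 (29214562 to 29219667, 5106 bases), which RefSeq also names as the primary transcript of the pair. The gene has 3 annotated transcripts. In RA, a single exon, and in RC, where they fall in exon 2, both hairpins are exonic, while in RB both are intronic. The gene that follows is eEF1gamma, a translation elongation factor subunit, 504 bases downstream. The annotated 3' arm of mir-279 spans bases 67 to 88 of its hairpin (22 bases) and the 5' arm bases 22 to 47 (26 bases). In mir-996 the 3' arm spans bases 61 to 82 and the 5' arm bases 19 to 40, 22 bases each. These positions were looked up by name and were not combined with coordinates of dm3, the build in the submitters' processing notes.

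**Figure D1:**
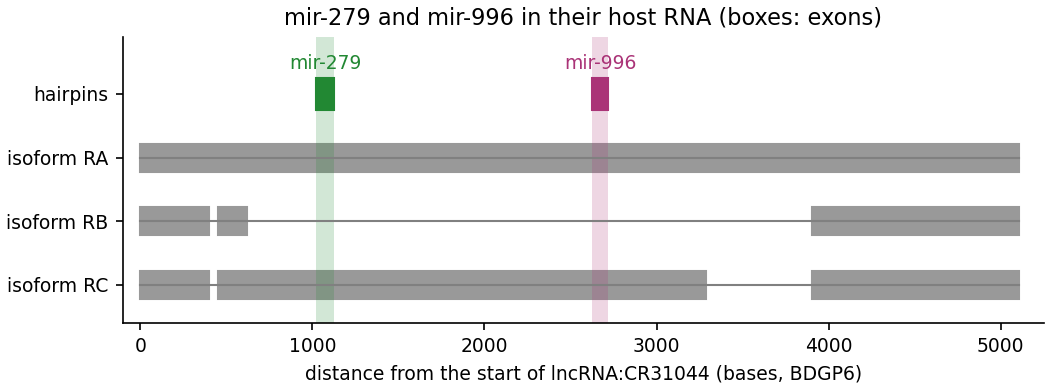
Map of the host gene lncRNA:CR31044 with its 3 annotated transcripts (boxes are exons, lines introns) and the 2 hairpins, against the distance in bases from the start of the gene. The hairpins, 1499 bases apart, lie in an exon of RA and RC and in an intron of RB.

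Both hairpins were read at both stages, and both took a smaller part of the adult than of the larval library. mir-279 had 1676 of the 822500 larval hairpin reads and 2264 of the 1665159 adult ones. In reads per 1000000 hairpin reads (RPM) this was 2038 in larvae (95% Poisson interval 1941 to 2138) and 1360 in adults (1304 to 1417). The larval level was thus 1.5-fold higher, with an exact conditional binomial interval of 1.41 to 1.60. mir-996 had 733 larval and 858 adult reads, or 891 RPM (828 to 958) and 515 RPM (481 to 551). Its larval level was 1.73-fold higher (1.57 to 1.91). Summed, the pair stood at 2929 RPM in larvae and 1875 RPM in adults, 1.56-fold higher in larvae (1.48 to 1.65). The intervals of each hairpin do not overlap between the libraries. In bulk tissue, fewer cells that make a miRNA and less of it per cell cannot be told apart.

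The call for a higher level asked for a ratio of 2 or more with an interval that leaves out 1, and neither member met it. Of the 114 hairpins with at least 20 reads over both libraries and 10 RPM in either, 24.6% were called higher in larvae and 40.4% in adults. The log2 ratios, adult over larval with 0.5 reads added, were -0.58 for mir-279 and -0.79 for mir-996, against a median of 0.47 over the 114. There were 37 hairpins with a lower ratio than mir-279 and 30 with a lower one than mir-996. The call depends on the scaling. When the 10 leading hairpins of each library were left out of the total, every log2 ratio moved by -0.52, and the larval call was then met by both, with adult over larval ratios of 0.465 for mir-279 and 0.403 for mir-996. Under that scaling 41 hairpins were called higher in larvae and 40 in adults, in place of 28 and 46. In the authors' deposited table the fold changes, larval over adult, are 1.5 for mir-279 and 1.73 for mir-996, from RPM values on the same totals.

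**Figure D2:**
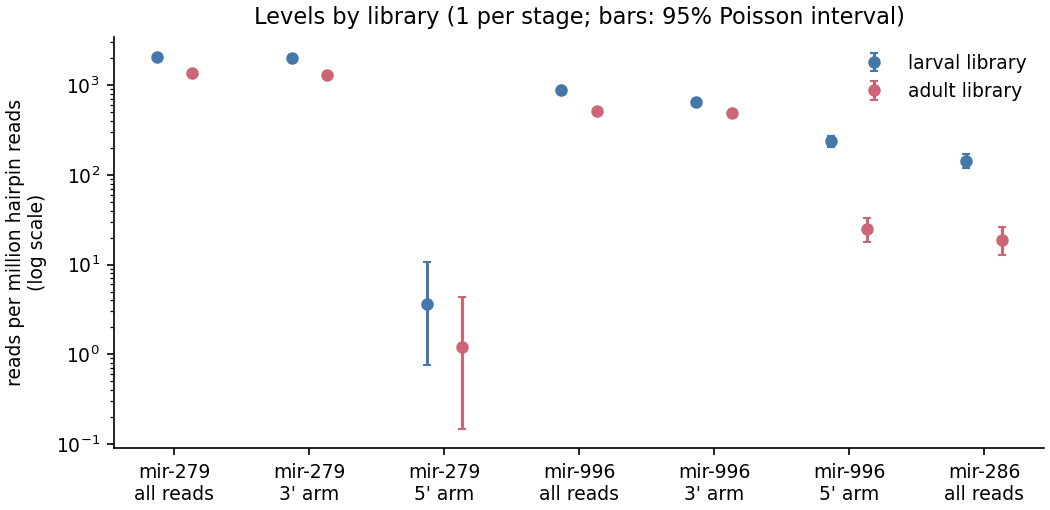
Level of each hairpin and arm in RPM (log scale) in the larval (blue) and adult (red) library, 1 library per stage, with 95% Poisson intervals of the count. The widest gap within the pair is that of the 5' arm of mir-996, at 238 and 24.6 RPM, while the 5' arm of mir-279 stays near the level of single reads.

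In the order of levels mir-279 was number 33 of the 139 hairpins listed in the larval library and number 42 of 169 in the adult one. Its larval neighbours, mir-981 at 2073 RPM and mir-2a-1 at 1957, had intervals that overlap its own. In the adult library mir-33 stood above it at 1503 RPM (1445 to 1563), with no overlap, and mir-13b-1 below it at 1259 (1206 to 1314), with an overlap. mir-996 was number 47 and number 55. In the larval library mir-33 (943 RPM) and mir-278 (858 RPM) beside it overlapped it, and in the adult library mir-283 did (556 RPM, 520 to 592) while mir-285 did not (444 RPM, 413 to 478). The hairpins nearest to mir-279 over the 2 libraries, by distance in log2 RPM, were mir-13b-1 (0.21), mir-13b-2 (0.27, sharing reads with mir-13b-1) and mir-190 (0.31). Those nearest to mir-996 were mir-283 (0.26), mir-12 (0.61) and mir-7 (0.86). With only 2 libraries this likeness holds little more than the level and the ratio.

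**Figure D3:**
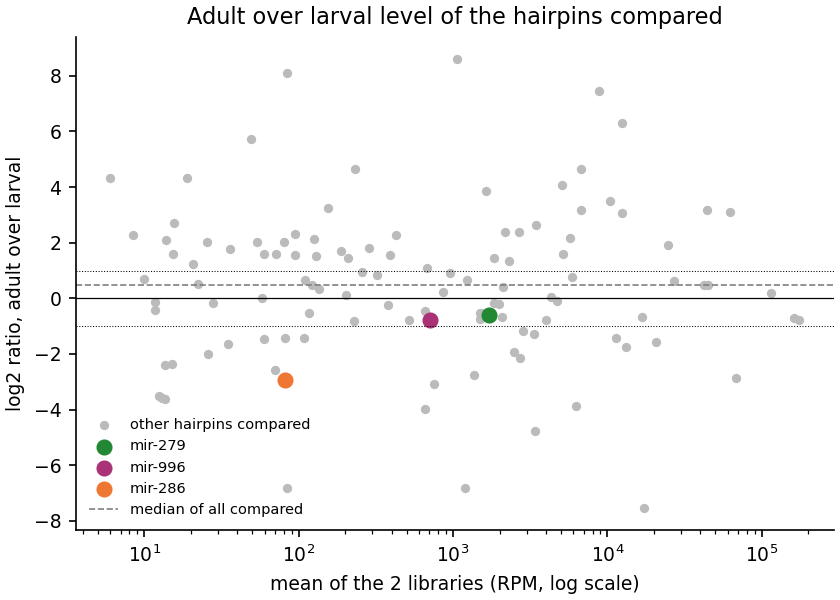
Log2 ratio of adult over larval level (0.5 reads added) against the mean RPM of the 2 libraries (log scale), for the 114 hairpins compared. The members sit at -0.58 and -0.79, between the dotted lines that mark a ratio of 2 in either direction and below the dashed median at 0.47, while mir-286 lies at -2.93.

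The hairpins differed in arm use. In mir-279 nearly all mature reads came from the 3' arm at both stages, with 3 of 1660 mature reads on the 5' arm in larvae (0.181%, exact binomial interval 0.0373 to 0.527) and 2 of 2177 in adults (0.0919%, 0.0111 to 0.331). In mir-996 the 5' arm held 196 of 725 mature reads in larvae, 27.0% (23.8 to 30.4). In adults it held 41 of 845, or 4.85% (3.50 to 6.53). The 3' share of mir-996 was thus 73.0% and 95.1%, a difference of 22.2 percentage points. This met the call for a different arm share, at least 10 points with intervals that do not overlap. Among 76 hairpins that had 20 or more mature reads at each stage and used both arms, 13.2% were called toward the 3' arm in adults and 9.21% toward the 5' arm. The shift of mir-996 was number 6 of the 76 toward the 3' arm. The median difference in 3' share over the 76, adult minus larval, was 0.222 points. Pooled over the reads of all hairpins, the 3' share of mature reads was 77.8% in larvae and 86.9% in adults. This pooled share also depends on which hairpins were abundant in each library.

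As a level, the 5' arm of mir-996 stood at 238 RPM in larvae (206 to 274) and 24.6 RPM in adults (17.7 to 33.4), 9.68-fold higher in larvae (6.88 to 13.9). Its 3' arm stood at 643 RPM (590 to 700) and 483 (450 to 517), 1.33-fold higher in larvae (1.19 to 1.49). The 5' arm alone met the level call, where 30.7% of 166 arms were called higher in larvae and 35.5% in adults. The 5' arm accounted for 56.8% of the difference of 376 RPM between the libraries in mir-996. The 3' arm of mir-279 was at 2015 RPM (1919 to 2114) and 1306 RPM (1252 to 1362), a ratio of 1.54 (1.45 to 1.64) that is close to that of its hairpin. Of the pair's 5' reads mir-996 supplied 196 of 199 in larvae and 41 of 43 in adults.

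The tables also separate reads that equal the annotated mature form (exact reads) from the other reads of an arm, here called variants. The kinds of variant that were accepted are not stated in the labels or headers. Exact reads numbered fewer than variants among the 3' reads of both hairpins at both stages, and their share was lower in adults. In mir-279, 706 of 1657 larval 3' reads were exact, 42.6% (40.2 to 45), and 482 of 2175 adult ones, 22.2% (20.4 to 24.0). In mir-996 the counts were 260 of 529, or 49.1% (44.8 to 53.5), and 289 of 804, or 35.9% (32.6 to 39.4). The differences of 20.4 and 13.2 points both met the share call. On the more abundant arm of 85 hairpins with 20 or more such reads at each stage, 20% were called lower in exact share in adults and 8.24% higher, with a median difference of -2.40 points. The difference of mir-279 was number 5 and that of mir-996 number 16 from the bottom. Pooled over all mature reads the exact share was nearly level, at 77.2% in larvae and 76.5% in adults. This pooled share also depends on which hairpins were abundant in each library. The median share over the 85 hairpins was 63.6% in larvae and 57.1% in adults. On the 5' arm of mir-996 the exact share did not meet the call, with 94 of 196 reads in larvae (48.0%, 40.8 to 55.2) and 24 of 41 in adults (58.5%, 42.1 to 73.7).

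**Figure D4:**
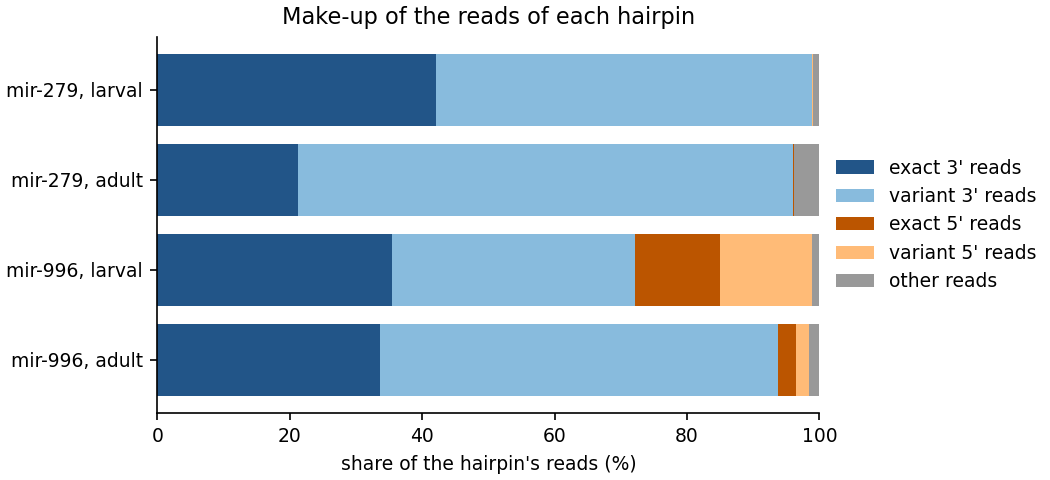
Share of each hairpin's reads, in percent, that were exact or variant reads of the 3' arm, exact or variant reads of the 5' arm, or other reads, for each hairpin and library. The dark blue part of mir-279 (exact 3' reads) and the orange parts of mir-996 (5' reads) are smaller in the adult library. Of the mature reads of mir-996 alone, rather than of all its reads as drawn, 5' reads were 27.0% in larvae and 4.85% in adults.

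In mir-279 the gap in level between the libraries lay mostly in the exact reads of the 3' arm. Exact 3' reads of mir-279 were at 858 RPM in larvae (796 to 924) and 289 RPM in adults (264 to 316), 2.97-fold higher in larvae (2.64 to 3.34). Its variant 3' reads were at 1156 RPM (1084 to 1232) and 1017 RPM (969 to 1066), a ratio of 1.14 (1.05 to 1.23). Exact 3' reads thus held 569 RPM of the difference of 678 RPM in mir-279, or 83.9%. For mir-996 the exact 3' reads were at 316 RPM (279 to 357) and 174 RPM (154 to 195), 1.82-fold higher in larvae (1.53 to 2.16), and the variant 3' reads at 327 and 309 RPM, a ratio of 1.06 (0.909 to 1.23). In mir-996 exact 3' reads held 37.9% of the difference, less than its 5' arm. Of the exact 3' reads, those of mir-279 alone met the level call, where 36.2% of 141 arms were called higher in larvae on exact reads and 36.2% in adults. With DESeq2 size factors those of mir-996 met it too, at an adult over larval ratio of 0.496, and at 0.383 without the 10 leading hairpins of each library in the total.

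**Figure D5:**
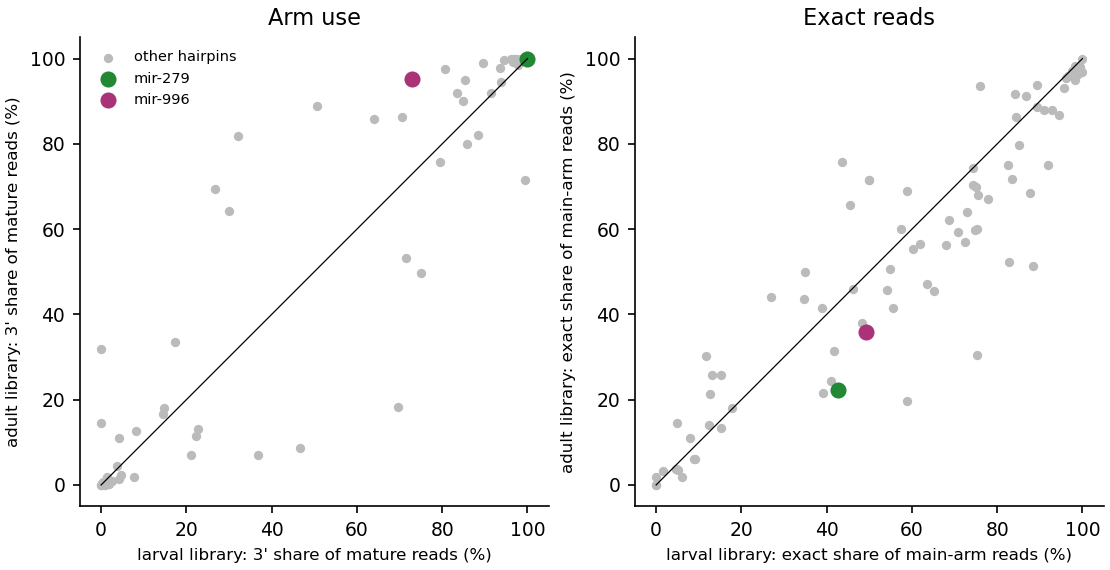
Adult against larval share, in percent, of the 3' arm in mature reads (left, 76 hairpins) and of exact reads on the more abundant arm (right, 85 hairpins); the line marks equal shares. mir-996 lies above the line at left (73.0% and 95.1%), mir-279 lies at its upper end, and both lie below the line at right.

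Reads of the hairpin outside both mature arms were few. Of the reads of mir-279 they made up 0.955% in larvae and 3.84% in adults (16 and 87 reads), and 1.09% and 1.52% of those of mir-996 (8 and 13 reads). As a level, these reads of mir-279 were 2.69-fold higher in adults (1.56 to 4.91), the opposite direction to its mature reads. They met the level call, where the other reads of 63 hairpins were called higher in adults in 44.4% and in larvae in 14.3%. Without the 10 leading hairpins of each library in the total this was 1.87-fold and no longer called. Over all hairpins such reads were 2.37% of all reads in larvae and 4.06% in adults, and their part in the difference was not tested.

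Within each library, where no scaling between libraries enters, mir-279 gave more reads than its neighbour. It supplied 69.6% of the pair's reads in larvae (67.7 to 71.4) and 72.5% in adults (70.9 to 74.1), or 2.29 and 2.64 reads for each read of mir-996. The odds ratio between the libraries was 1.15 (1.02 to 1.30). On mature reads alone, which leave out the other reads (16 and 87 of mir-279, 8 and 13 of mir-996), it was 1.13 (0.998 to 1.27), and 1 was no longer excluded. On the 3' arms alone the order turned, with 75.8% (73.9 to 77.6) in larvae and 73.0% (71.4 to 74.6) in adults and an odds ratio of 0.864 (0.759 to 0.982). The 196 larval 5' reads of mir-996 enter the first share and not the second. Among exact 3' reads the part of mir-279 was 73.1% (70.2 to 75.9) and 62.5% (59.0 to 65.9), an odds ratio of 0.614 (0.498 to 0.757), and among variant 3' reads it was 78.0% and 76.7%, with an odds ratio of 0.930 (0.783 to 1.10). The 3' reads of mir-996 were exact more often than those of mir-279 in each library, by 6.54 points in larvae (odds ratio 1.30, 1.06 to 1.59) and 13.8 points in adults (1.97, 1.65 to 2.36).

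None of the mature reads of either member was shared with another hairpin: the counts of reads that fit 1 hairpin equal the full mature counts, at 1660 and 2177 for mir-279 and 725 and 845 for mir-996. The other reads of the hairpins, 24 in larvae and 100 in adults over the pair, have no such count.

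No mature sequences were at hand, so the shared seed was taken as known and other miRNAs with it were not looked up. The miRNA known to share the pair's seed, miR-286, belongs to the miR-309 cluster of the early embryo and lies on another chromosome arm. Its hairpin had 118 larval and 31 adult reads, 143 RPM (119 to 172) and 18.6 RPM (12.6 to 26.4), and met the larval call at 7.71-fold (5.15 to 11.8). All of its mature reads were 3' reads. Taking the 3' reads of the 3 hairpins together, mir-279 supplied 71.9% in larvae (70.1 to 73.8) and 72.3% in adults (70.6 to 73.9). mir-996 supplied 23.0% (21.3 to 24.7) and 26.7% (25.1 to 28.3), and mir-286 5.08% (4.22 to 6.06) and 1.03% (0.701 to 1.46). The exact share of mir-286 pointed the other way from the pair, with 89 of 117 larval (76.1%, 67.3 to 83.5) and 29 of 31 adult reads (93.5%, 78.6 to 99.2), though the intervals overlap.

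Markers of tissues, some of them not named in the dissections, differed between the libraries too. The hairpin mir-124, of a neuronal miRNA, was at 2564 RPM in larvae and 1603 RPM in adults, counting all its reads. Its 3' arm alone held 619 reads in larvae (32.1% of its mature reads) and 1663 in adults (81.8%). Against the library totals those 3' reads were higher in adults, the opposite direction to the whole hairpin. The bithorax miRNAs mir-iab-4 and mir-iab-8, which mark the ventral ganglion, summed to 184 and 1.8 RPM (151 and 3 reads). mir-210 of photoreceptors was at 99.7 and 17586 RPM. mir-1 and mir-133, taken as muscle markers, summed to 565 and 13143 RPM, nearly all of it mir-133 (518 and 13002 RPM). mir-1 alone was at 47.4 and 141 RPM (39 and 235 reads). The ovary marker mir-318 was at 4.86 and 22.8 RPM, 6 of 8 testis markers were listed and summed to 3.65 and 14.4 RPM, and 4 of 6 fat body markers to 0 and 5.40 RPM, where a count of 0 allows up to 3.65 RPM in larvae. What part the makeup of the dissections has in the levels and shares of mir-279 and mir-996 was not tested.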

How the data were processed

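Small RNA libraries were made with an Illumina TruSeq kit, per the labels' protocols. The submitters' processing notes name CASAVA 1.8 and dm3. The labels and headers state no aligner, counting program or miRNA release. The authors deposited read counts per hairpin, divided per the file headers into exact and all reads of the 5' and 3' mature arms, and other reads. Their comparison table holds RPM values and a signed fold change, used as the authors' score for the comparison. In larvae 1 read equalled 1.22 RPM and in adults 0.601 RPM, and a count of 0 allows 3 reads.

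RPM, exact 95% intervals (Poisson, Clopper-Pearson) and odds ratios were computed with SciPy 1.17.1. Only the level ratio of a hairpin, its interval and its call were tested on simulated data, which held counting error alone. Alternatives were TMM factors (edgeR 4.0.16), DESeq2 1.42.0 size factors, a total that left out the 10 leading hairpins of each library, and subsets of reads. Members, marker lists and rules were chosen with earlier results of these data known, and the comparisons of single arms and of exact reads as levels were added after the values were seen. Named hairpins are the members, mir-286, the 3 nearest by level, the rank neighbours and the markers. The lists of candidate hairpins were not used.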

Additional observations from a re-analysis of the deposited data

How the results depend on the processing

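Ratios here are adult over larval. Neither member nor their sum met the call with total scaling, TMM, DESeq2 size factors, mature reads or reads of 1 hairpin. All 3 met the larval call when the 10 leading hairpins of each library were left out of the total (mir-279 0.465, mir-996 0.403, sum 0.446). They also met it with exact mature reads (0.347, 0.449 and 0.381). Over all hairpins compared, 41 were called higher in larvae and 40 in adults with the first setting. With exact mature reads 32 were called higher in larvae and 42 in adults. No ratio of the members turned. The odds ratio of the mir-279 share, 1.15, was 1.13 (0.998 to 1.27) with mature reads or reads of 1 hairpin, so that 1 was no longer excluded, and it turned to 0.864 on 3' reads and 0.614 on exact 3' reads. The share itself was 75.8% (3') and 73.1% (exact 3') in the larval library and 62.5% (exact 3') in the adult one. The 3' share of mir-279 went to 100% with exact reads in the larval library, and with all hairpin reads as denominator to 98.9% and 96.1%. That of mir-996 went to 92.3% with exact reads in the adult library. Hairpins with a different exact share went from 24 to 8 at 20 points, which mir-279 met and mir-996 did not. Other reads of a hairpin have no count of reads that fit 1 hairpin, so that alternative was not run for them. No paired analysis was possible because each stage has 1 library. The 5' arm of mir-279 had 3 and 2 reads, too few to compare its level between the libraries.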
